A study of Mus musculus with 8 samples.

Results

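Cells that have divided their chromosomes still have to divide their bodies, and 9 genes of this last step and of a related scaffold family were followed in lungs of hypoxic and normoxic mice. They are *Ect2*, *Racgap1* and *Prc1* of the spindle midzone, *Anln* and *Cit* of the contractile ring, *Cep55* of the midbody, and the family members *Iqgap1*, *Iqgap2* and *Iqgap3*. The genes were picked by name for their part in cytokinesis or for the IQGAP family, with their hypoxia values already known, and are 9 of 25428 probe sets, 1 for each Entrez gene. Since the comparison of hypoxia with normoxia served to choose them, their differences between the groups are described here without a test.

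Each sample was 1 lung lobe of 1 mouse, taken at once after death and hybridised to an Affymetrix Mouse Gene ST 2.0 array. The hypoxia group held 4 mice (A, B, C and D) kept at 10% oxygen for 7 days, and the normoxia group 4 mice (F, G, H and I) kept in normoxia for the same time. All 8 mice had the genotype *Nfat5*fl/fl, in which a floxed exon of *Nfat5*, the gene of an osmotic stress transcription factor, is still in place. By the study's methods, such controls were male offspring of a cross with SM-MHC-CreERT2 mice, in which a smooth muscle promoter drives an inducible Cre, and they received the solvent miglyol in place of tamoxifen for 5 days at 10 to 12 weeks of age, followed by 2 to 3 weeks of recovery. Whether each of the 8 mice carried the Cre construct is not stated in their labels. The values are log2 intensities, so a difference of 1 is a doubling, and a level of one probe set cannot be set against that of another because each has its own probes. A p-value sets the difference between the groups against the spread between mice of the same group.

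Animal cells separate by narrowing at the equator between the separated chromosomes. Bundled microtubules of the midzone mark the membrane there, a ring of actin and myosin assembles and constricts, and the thin bridge that is left is cut at the midbody by ESCRT proteins. Genes of this machinery are transcribed mainly in late G2 and mitosis, and many of their promoters hold a short element, the cell cycle genes homology region (CHR), near the start. IQGAP proteins are large scaffolds that bind actin, calmodulin and the small GTPases Cdc42 and Rac1, and *Iqgap3* is the family member known from dividing cells. In the adult lung few cells divide at rest, while prolonged hypoxia is known to thicken the walls of small pulmonary arteries.

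The promoters of the 9 genes were read first. The letters TTTGAA of the CHR, searched on both strands (TTCAAA on the other), occurred within 50 bases of the annotated start in 6 of the 9 genes, namely *Ect2*, *Racgap1*, *Prc1*, *Anln*, *Cep55* and *Iqgap3*. They were not in the windows of *Cit*, *Iqgap1* and *Iqgap2*. Of 27025 genes with a promoter window, 5.72% held the letters that close to a start (4.94% of 32851 windows), and 20.2% anywhere in the window of 300 bases. The stretches below show the last 50 bases before the start and the first 50 after it, read 5′ to 3′ along the gene, for the 4 genes with the largest differences between the groups, with the CHR letters in capitals. Coordinates and sequence are those of RefSeq on the mouse assembly GRCm38.p6, with *Ect2* at chr3:27153829-27153928 on the minus strand, *Prc1* at chr7:80294401-80294500 on the plus strand, *Anln* at chr9:22389157-22389256 on the minus strand and *Iqgap3* at chr3:88082001-88082100 on the plus strand.
Ect2: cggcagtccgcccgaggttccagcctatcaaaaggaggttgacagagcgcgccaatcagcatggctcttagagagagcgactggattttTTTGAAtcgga
Prc1: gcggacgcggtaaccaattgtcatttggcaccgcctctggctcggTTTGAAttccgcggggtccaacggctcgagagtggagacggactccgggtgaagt
Anln: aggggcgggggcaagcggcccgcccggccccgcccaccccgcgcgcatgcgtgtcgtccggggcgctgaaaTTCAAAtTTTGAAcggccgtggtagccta
Iqgap3: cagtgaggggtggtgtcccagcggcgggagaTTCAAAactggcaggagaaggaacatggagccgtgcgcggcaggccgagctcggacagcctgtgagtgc

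Counted with the start as position 1, the letters began at position 40 in *Ect2*, with a further copy at position -114, at -5 in *Prc1* and at -19 in *Iqgap3*. *Anln* had them at positions 22 and 29, once on each strand and 1 base apart. In *Racgap1* they began at position 6 and in *Cep55* at position 25. *Ect2*, *Prc1* and *Cep55* have 2 annotated starts each, and the letters lay within 50 bases of both. The other IQGAP genes are shown for contrast, *Iqgap1* at chr7:80803282-80803381 on the minus strand and *Iqgap2* at chr13:95891873-95891972 on the minus strand. Neither stretch holds the CHR letters, so neither has capitals.
Iqgap1: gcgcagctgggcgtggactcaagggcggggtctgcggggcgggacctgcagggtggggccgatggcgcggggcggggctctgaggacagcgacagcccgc
Iqgap2: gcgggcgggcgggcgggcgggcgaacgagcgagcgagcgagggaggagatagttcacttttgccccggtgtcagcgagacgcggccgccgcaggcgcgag

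The CCAAT box, the letters bound by the factor NF-Y, was in the windows of *Ect2*, *Racgap1*, *Prc1* and *Iqgap1*, that is in 4 of 9 genes against 41.1% of all genes (both strands, overlaps with other motifs allowed). The letters ACGTG or GCGTG, the core that hypoxia-inducible factors bind, were in 7 of 9 windows against 46.7% of all genes. *Cit* and *Iqgap2* were the genes without them. Of the lists compared further below, 14 of 18 abscission and 11 of 14 IQGAP-binding partners with a window also held these letters. So did 5 of 8 midzone partners and 18 of 30 other proliferation genes. The share among the 9 genes thus does not set them apart from the abscission and IQGAP-binding lists. A match of letters is a description and does not show that a factor bound there.

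**Figure D1:**
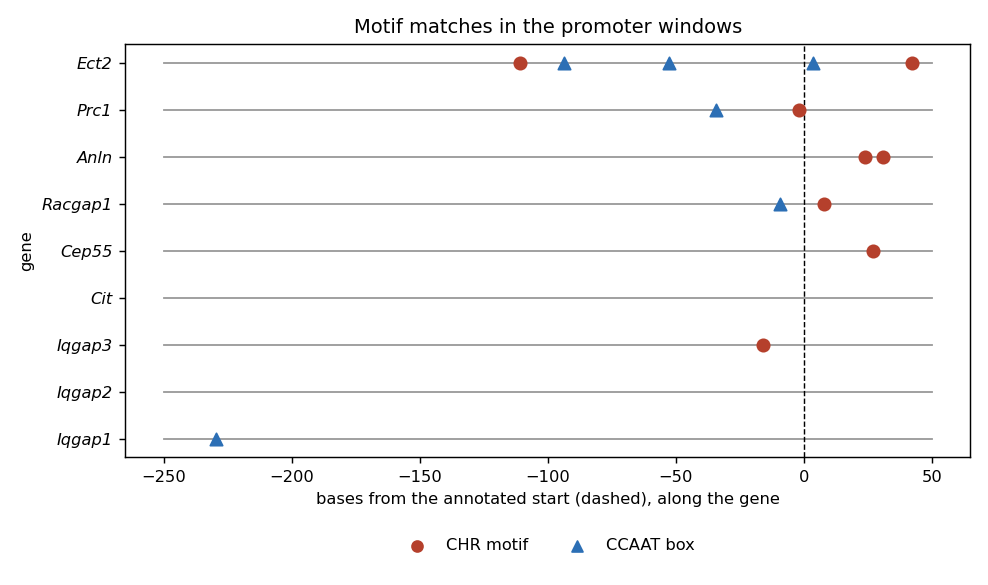
Positions of CHR (TTTGAA, red circles) and CCAAT (blue triangles) matches on either strand in the RefSeq promoter window of each gene, from 250 bases before to 50 bases after the first annotated start (dashed), in bases. The 6 genes with a red circle near the start are *Ect2*, *Prc1*, *Anln*, *Racgap1*, *Cep55* and *Iqgap3*.

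Hypoxic lungs had more transcript of all 6 midzone and ring genes on average. Their median log2 difference, hypoxia minus normoxia, was 1.52, a 2.86-fold higher level, and the 6 differences ran from 0.87 to 2.16. Over all probe sets the median difference was -0.005, and 99% of the probe sets lay below 0.82. In a whole lobe, fewer cells of a type and less RNA per cell cannot be told apart, and this holds for every level given here.

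*Ect2*, a guanine nucleotide exchange factor that starts the furrow at the equator, had log2 levels of 6.53, 6.63, 5.32 and 6.65 in hypoxic mice A to D, against 3.38, 4.76, 4.22 and 4.15 in normoxic mice F to I. The lowest hypoxic mouse, C, was still above the highest normoxic mouse, G, and the groups did not overlap. The means were 6.28 ± 0.64 in hypoxia and 4.13 ± 0.57 in normoxia (SD, n = 4 each), a difference of 2.16 with a limma standard error of 0.34, or 4.46-fold. Only 0.0197% of all probe sets had a larger difference.

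*Racgap1* encodes the GTPase-activating subunit of centralspindlin, the complex that bundles midzone microtubules and binds Ect2. Its levels were 6.14, 5.99, 5.0 and 5.91 in hypoxic mice A to D, against 4.83, 4.54, 4.87 and 3.78 in normoxic mice F to I. Mouse C came close to normoxic mice F and H but stayed above them. The mean was 5.76 ± 0.52 in hypoxia and 4.51 ± 0.51 in normoxia (SD, n = 4 each), a difference of 1.26 (SE 0.29) or 2.39-fold.

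*Prc1*, which crosslinks antiparallel microtubules in the midzone, had levels of 6.38, 6.14, 4.85 and 6.25 in hypoxic mice A to D, against 3.53, 4.45, 3.90 and 3.14 in normoxic mice F to I. The groups did not overlap, and mouse C was again the hypoxic mouse nearest to normoxia. The means were 5.90 ± 0.71 in hypoxia and 3.76 ± 0.56 in normoxia (SD, n = 4 each), a difference of 2.15 (SE 0.35) or 4.44-fold.

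Of the ring genes, *Anln* encodes anillin, which ties actin, myosin and septins together under the furrow. It had levels of 5.45, 5.81, 4.43 and 6.0 in hypoxic mice A to D, against 3.24, 4.06, 3.73 and 3.55 in normoxic mice F to I. The groups did not overlap, with a mean of 5.42 ± 0.70 in hypoxia and 3.64 ± 0.34 in normoxia (SD, n = 4 each). The difference was 1.78 (SE 0.31), or 3.43-fold.

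*Cit* encodes citron kinase, which keeps the ring and the midbody together. Its levels were 5.56, 5.42, 4.80 and 5.01 in hypoxic mice A to D, against 4.45, 4.30, 4.57 and 4.00 in normoxic mice F to I. It had the smallest difference of the 6 genes, 0.87 (SE 0.20) or 1.82-fold, with means of 5.20 ± 0.35 in hypoxia and 4.33 ± 0.25 in normoxia (SD, n = 4 each). Its groups still did not overlap, and its spread within the hypoxia group was the narrowest of the 6 genes.

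*Cep55*, the midbody protein that recruits ESCRT factors for the final cut, had levels of 5.40, 4.42, 3.55 and 4.26 in hypoxic mice A to D, against 2.97, 3.75, 3.37 and 3.05 in normoxic mice F to I. Here the groups overlapped, because mouse C lay below normoxic mouse G. The means were 4.41 ± 0.76 in hypoxia and 3.29 ± 0.35 in normoxia (SD, n = 4 each), a difference of 1.12 (SE 0.33) or 2.17-fold. Mouse A was well above the other hypoxic mice, and without A the difference was 0.79.

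The 3 IQGAP genes differed from each other. *Iqgap3* had log2 levels of 6.07, 6.07, 4.80 and 5.44 in hypoxic mice A to D, against 3.46, 4.08, 3.59 and 3.12 in normoxic mice F to I. The groups did not overlap, as for *Ect2* and *Prc1*. Its mean was 5.59 ± 0.61 in hypoxia and 3.56 ± 0.40 in normoxia (SD, n = 4 each), a difference of 2.03 (SE 0.29) or 4.10-fold.

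*Iqgap1*, the widely expressed member that links actin to cell adhesion and to Cdc42 and Rac1, had levels of 8.97, 8.68, 9.18 and 9.48 in hypoxic mice A to D, against 8.71, 8.91, 9.54 and 8.87 in normoxic mice F to I. The highest mouse was normoxic and the lowest hypoxic, so that the groups covered each other. The difference was 0.07 (SE 0.22), with means of 9.08 ± 0.34 in hypoxia and 9.01 ± 0.36 in normoxia (SD, n = 4 each), and 37.2% of all probe sets had a larger one. Its sign turned when hypoxic mouse D (-0.06) or normoxic mouse F (-0.03) was left out.

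*Iqgap2*, best known as the member abundant in liver, had levels of 4.71, 4.74, 5.19 and 5.04 in hypoxic mice A to D, against 4.55, 5.28, 4.52 and 4.73 in normoxic mice F to I. These groups overlapped as well, with normoxic mouse G the highest of all. The means were 4.92 ± 0.24 in hypoxia and 4.77 ± 0.35 in normoxia (SD, n = 4 each), a difference of 0.15 (SE 0.20). Leaving out single mice moved it between 0.06 and 0.32.

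**Figure D2:**
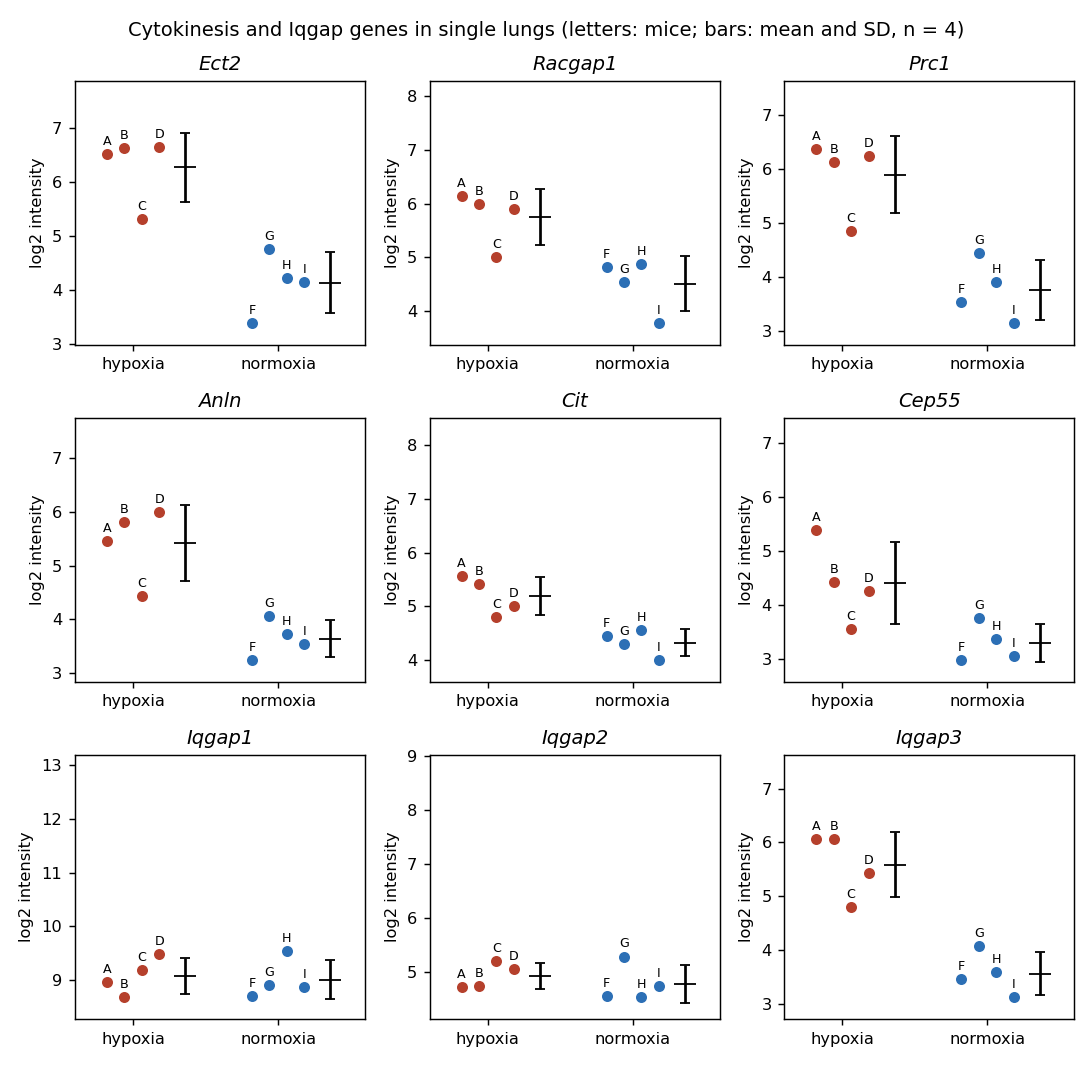
Log2 intensity of each gene in each mouse (letters), hypoxia in red at left and normoxia in blue at right, with the mean and SD of 4 mice as black bars and axes of equal span. In *Ect2*, *Racgap1*, *Prc1*, *Anln*, *Cit* and *Iqgap3* all red points lie above all blue points, while *Cep55*, *Iqgap1* and *Iqgap2* overlap.

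In all, 6 of the 9 genes had every hypoxic mouse above every normoxic mouse, where 3.01% of all probe sets did, and 0 of 9 had every hypoxic mouse below, where 1.61% did. None of the 9 passed an adjusted p of 0.05 in limma over all probe sets, where 0% of all probe sets did, and 7 of 9 had a lower unadjusted p with a higher level in hypoxia, against 5.34% of all probe sets. Without hypoxic mouse C 4 of the 9 passed the adjusted threshold, where 33 of 25428 probe sets did. Without normoxic mouse G 3 of the 9 passed it, where 23 probe sets did. The unmoderated test that the study's methods name also gave 0 of 9 after adjustment and 7 of 9 before it (7.89% of all probe sets, in either direction). Because the genes were chosen on this contrast, nothing is read from these counts. The sizes of the 9 differences, and not their calls, are the description given here.

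The 4 hypoxic mice were not alike. Mouse C was the lowest hypoxic mouse in all 6 midzone and ring genes and in *Iqgap3*, that is in 7 of 7. Mouse A was the highest in 5 of these 7 genes and mouse D in 2. Among normoxic mice G was the highest in 5 and H in 2, while I was the lowest in 4 and F in 3. The mean deviation of the 6 midzone and ring genes from their means over the 8 mice was 1.19, 1.02, -0.06 and 0.96 in hypoxic mice A to D, against -0.99, -0.41, -0.61 and -1.11 in normoxic mice F to I. Mouse C was thus nearer to normoxic mouse G than to any other hypoxic mouse. *Iqgap1* and *Iqgap2* did not share the pattern, with mouse C above mice A and B in both.

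**Figure D3:**
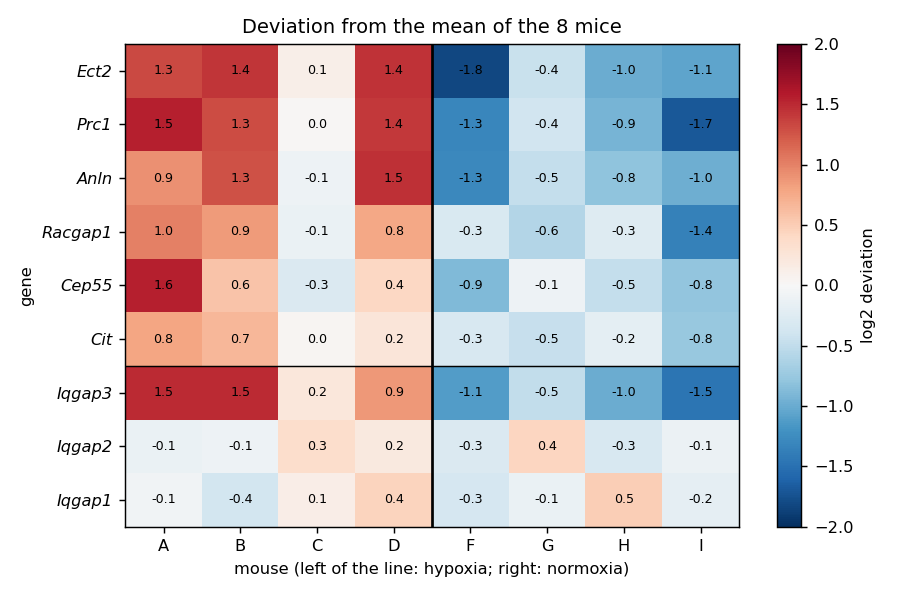
Log2 deviation of each gene in each mouse from its mean over the 8 mice, red above and blue below, with hypoxic mice A to D left of the black line and normoxic mice F to I right of it. The column of mouse C is pale in the 6 midzone and ring genes and in *Iqgap3*, and *Iqgap1* and *Iqgap2* show no column pattern of this kind.

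Variation between mice of the same group is separate from the contrast that chose the genes. Each value was set against the mean of its own group, and Pearson's r was taken over the 8 mice as a description. The points share arrays and group means. Among the 6 midzone and ring genes the 15 pairs had r between 0.35 (*Ect2* and *Cit*) and 0.94 (*Ect2* and *Anln*), with a median of 0.72. *Iqgap3* reached 0.71 to 0.91 with these 6 genes, the highest with *Prc1*. *Iqgap1* had r of -0.15 to 0.09 and *Iqgap2* of -0.61 to 0.12 with the same genes, and the 3 IQGAP genes had -0.30 to 0.09 with each other. Within groups *Iqgap3* therefore varied with the midzone and ring genes and not with the other members of its own family. Mouse C, the lowest hypoxic mouse in these 6 genes and in *Iqgap3*, bears on these values of r, and r without mouse C was not taken.

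**Figure D4:**
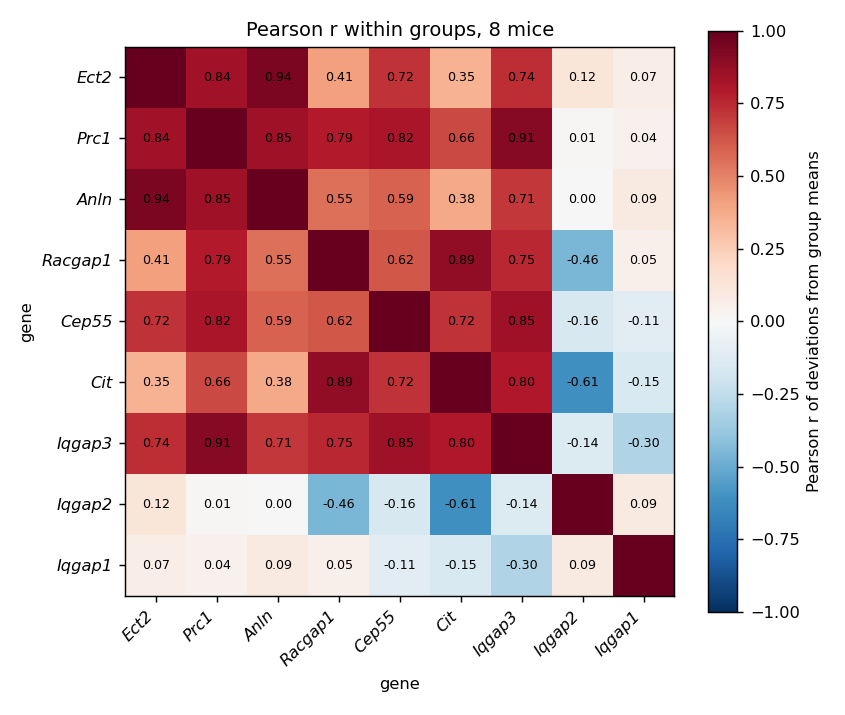
Pearson's r over 8 mice between the genes, after subtracting the mean of the mouse's own group (colour and numbers). The block of the 6 midzone and ring genes and *Iqgap3* lies between 0.35 and 0.94, and the rows of *Iqgap1* and *Iqgap2* lie between -0.61 and 0.12.

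The probe sets most like each gene by this measure were looked up among 19410 of named protein-coding genes, without predicted genes and Rik clones. Closest to *Iqgap3* were *Melk* (r = 0.971), *Kif23* (0.953) and *Knstrn* (0.951). *Ect2* was closest to *Bub1b* (0.970), *Hk3* (0.944) and *Anln* (0.937), and *Racgap1* to *Lmnb1* (0.992), *Pcdh12* (0.984) and *Prim2* (0.963). For *Prc1* they were *Tsga13* (0.960), *Polq* (0.959) and *Tro* (0.953), and for *Anln* *Neil3* (0.965), *Tpx2* (0.942) and *Cyp2c54* (0.938). *Cit* was closest to *Selenoh* (0.990), *Cdkn2c* (0.955) and *Hmmr* (0.939), and *Cep55* to *Skp2* (0.989), *Spata7* (0.981) and *Smco2* (0.971). *Iqgap1* was closest to *Myh10* (0.989), *Npy5r* (0.989) and *Olfr993* (0.985), and *Iqgap2* to *Tmem25* (0.994), *Ap3s1* (0.977) and *Aox2* (0.973). The lookup over so few mice is a description only.

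The other genes of the midzone were next compared between the groups, as a list of 12 genes with all 12 measured. This list and those below were, like the members, chosen with earlier results of these data known. Their counts and p-values are therefore a description and no independent test. None passed the adjusted threshold, with a smallest adjusted p of 0.0751 for *Cdca8*. Without hypoxic mouse C 4 of the list passed it, where 33 of 25428 probe sets did. At an unadjusted p under 0.05, 7 of the 12 were higher in hypoxia and 0 lower, where 5.34% of all probe sets were higher and 3.15% lower, and the same number, 7, had every hypoxic mouse above every normoxic mouse (3.01% of all probe sets). The median difference of the list was 1.07, against -0.005 over all probe sets. *Cdca8*, a subunit of the chromosomal passenger complex, had levels of 4.79, 5.23, 4.35 and 4.81 in hypoxic mice A to D, against 3.68, 3.45, 3.68 and 2.95 in normoxic mice F to I, a difference of 1.36 (SE 0.22). *Plk1*, the mitotic kinase that primes the Racgap1 protein for binding Ect2, averaged 6.55 ± 0.70 in hypoxia and 4.75 ± 0.41 in normoxia (SD, n = 4 each), a difference of 1.80 (SE 0.32, adjusted p = 0.0918). The passenger scaffold *Incenp* differed by 0.92 (SE 0.17, adjusted p = 0.0918), and *Kif20a*, a midzone kinesin, by 1.22 (SE 0.22, adjusted p = 0.0918).

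*Kif23*, the kinesin that forms centralspindlin together with Racgap1, had levels of 5.84, 5.68, 4.20 and 5.40 in hypoxic mice A to D, against 3.52, 4.07, 3.60 and 3.28 in normoxic mice F to I. Both subunits of the complex were thus highest in mouse A and lowest in mouse C among hypoxic mice. The difference of *Kif23* was 1.66 (SE 0.32, adjusted p = 0.114). The 5 midzone partners whose groups overlapped, named after their values were seen, were *Kif20b* (0.64), *Kif14* (0.29), *Kif4* (0.21), *Clasp1* (-0.08) and *Clasp2* (-0.23). *Clasp1* and *Clasp2* encode microtubule plus-end proteins that cells also use outside of mitosis.

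Abscission genes, to whose products Cep55 leads, had a median difference of 0.03. All 22 listed genes were measured, and 0 passed the adjusted threshold (smallest adjusted p = 0.636), where 0% of all probe sets did. In limma 0 had an unadjusted p under 0.05, where 5.34% of all probe sets were higher and 3.15% lower. The methods' unmoderated test gave 1 of 22, against 7.89% of all probe sets. These counts lie near the shares over all probe sets, and nothing is read from them. The differences ran from -0.38 to 0.37, so that each was smaller in size than that of every midzone and ring gene. The largest in size among the 4 with the smallest p was that of the ESCRT subunit *Chmp5* at -0.38 (SE 0.22), with *Zfyve19*, a regulator of the abscission checkpoint, at 0.37 (SE 0.19), and the ESCRT subunit *Chmp2b* and the microtubule-severing enzyme *Spast* at -0.30 each (SE 0.15 and 0.17).

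The 22 listed genes of IQGAP-binding proteins were all measured and had a median difference of -0.07. None passed the adjusted threshold (smallest adjusted p = 0.41). At an unadjusted p under 0.05 in limma, 1 of 22 was higher and 1 lower in hypoxia. Over all probe sets 5.34% were higher and 3.15% lower, so the list did not stand out from the background in these 2 counts. The methods' unmoderated test gave 3 of 22, against 7.89% of all probe sets. Every hypoxic mouse lay above every normoxic mouse in 1 of 22, against 3.01% of all probe sets. Nothing is read from any of these counts. *Rap1a*, a small GTPase, had levels of 5.94, 5.67, 5.22 and 5.13 in hypoxic mice A to D, against 6.29, 6.29, 5.61 and 6.70 in normoxic mice F to I, a difference of -0.73 (SE 0.25). Its groups overlapped. *Calm3*, 1 of the 3 listed calmodulin genes, had levels of 9.52, 9.61, 9.33 and 9.42 in hypoxic mice A to D, against 9.02, 9.20, 9.10 and 9.23 in normoxic mice F to I. Its groups did not overlap, with a difference of 0.33 (SE 0.14, adjusted p = 0.531). The scaffold *Dlg1* differed by -0.39 (SE 0.18) and the kinase *Mapk3* by 0.32 (SE 0.16).

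Proliferation genes that have no main part in cytokinesis were measured for comparison, 35 of 35. Their mean was higher in hypoxia for all 35, 0 passed the adjusted threshold (smallest adjusted p = 0.0551), 26 were higher at an unadjusted p under 0.05 (5.34% of all probe sets) and 20 had every hypoxic mouse above every normoxic mouse (3.01%). Without hypoxic mouse C 9 of them passed the adjusted threshold (33 of 25428 probe sets). Without normoxic mouse G 2 of them did (23 probe sets), and without normoxic mouse H 1 (14 probe sets). The median difference was 1.18, beside 1.52 for the 6 midzone and ring genes. *Ccnb2*, a mitotic cyclin, had levels of 6.75, 7.05, 5.67 and 6.58 in hypoxic mice A to D, against 4.03, 4.88, 4.42 and 4.21 in normoxic mice F to I. Its difference of 2.13 (SE 0.29) was close to those of *Ect2*, *Prc1* and *Iqgap3*, and mouse C was again the lowest hypoxic mouse. *Aurka*, a spindle pole kinase, differed by 1.84 (SE 0.24, adjusted p = 0.0551), *Ube2c*, a ubiquitin-conjugating enzyme of mitotic exit, by 2.07 (SE 0.30, adjusted p = 0.0551) and the cyclin *Ccna2* by 1.77 (SE 0.32, adjusted p = 0.0918).

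**Figure D5:**
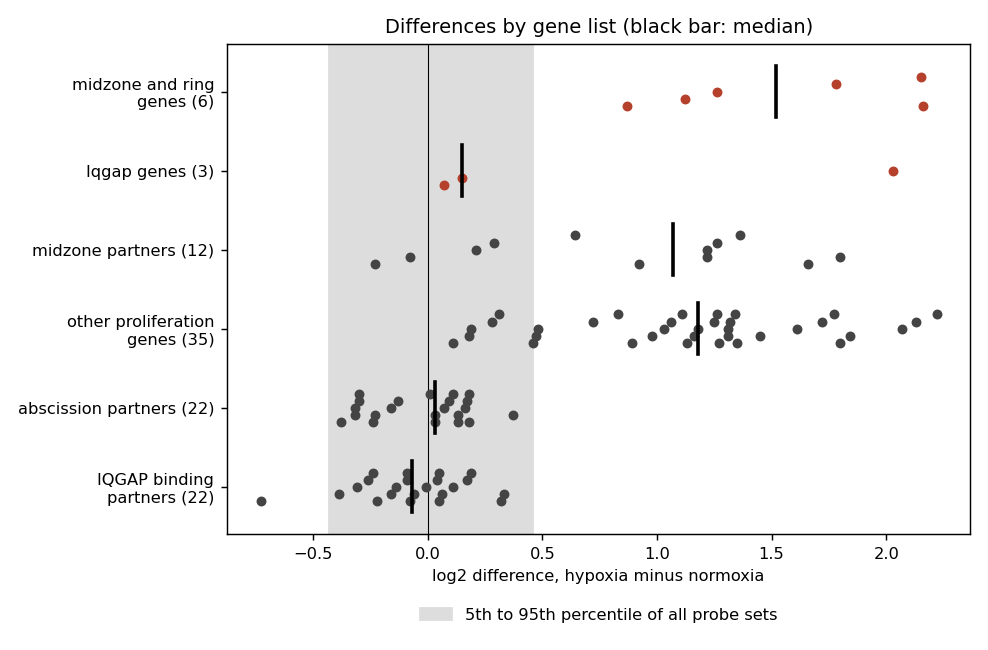
Log2 difference, hypoxia minus normoxia, of each measured gene (points) by list, the 9 cytokinesis and IQGAP genes in red, with the median of each list as a black bar and the 5th to 95th percentile of all probe sets (-0.43 to 0.46) in grey. The medians of the midzone and ring genes, the midzone partners and the other proliferation genes (1.52, 1.07 and 1.18) lie right of the grey band, and those of the abscission and IQGAP-binding partners (0.03 and -0.07) lie within it.

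The CHR letters were also counted in the promoters of these lists. They lay within 50 bases of the start in 5 of 8 midzone partners with a window (*Kif23*, *Kif4*, *Kif20b*, *Cdca8* and *Plk1*), in 0 of 18 abscission and 0 of 14 IQGAP-binding partners, and in 11 of 30 other proliferation genes, against 5.72% of all genes. *Kif4* and *Kif20b* held them and had overlapping groups, while *Cit* did not hold them and had groups that were apart.

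Genes next to the 9 genes on the chromosome gave a further comparison. The 18 measured neighbours, 1 on each side, had differences between -0.37 and 0.31 with a median of 0.02, 10 higher and 8 lower on average. None passed the adjusted threshold, where 0% of all probe sets did. None had an unadjusted p under 0.05 in limma, where 5.34% of all probe sets were higher and 3.15% lower. None had groups that did not overlap, where 3.01% of all probe sets were higher and 1.61% lower in this way. For so few genes these counts lie near the shares over all probe sets, and nothing is read from them. *Nceh1* and *Spata16*, named after their values were seen and beside *Ect2* on chromosome 3, differed by 0.02 (SE 0.18) and -0.07 (SE 0.17). *Ttc24* and *Mef2d*, beside *Iqgap3* on the same chromosome, differed by 0.11 (SE 0.20) and 0.18 (SE 0.21).

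Lung markers were present in all lobes, led by *Sftpc* and *Sftpb* for alveolar type 2 cells and *Ager* for type 1 cells. Some marker lists moved with the groups, given here as log2 of the summed intensity of the list. Megakaryocyte and platelet markers had sums of 7.35 to 7.75 in hypoxia and 8.16 to 8.60 in normoxia (7 of 7 lower on average). Adipocyte markers had 8.82 to 9.47 in hypoxia and 9.59 to 11.45 in normoxia, and cardiac muscle markers 9.72 to 10.09 in hypoxia and 10.30 to 10.88 in normoxia (8 of 8 lower on average in both lists). B cell sums overlapped, at 7.99 to 8.82 in hypoxia and 8.71 to 10.49 in normoxia (4 of 4 genes lower on average), and so did skeletal muscle sums, at 6.72 to 8.24 in hypoxia and 6.92 to 11.16 in normoxia (6 of 6 lower on average). Smooth muscle sums overlapped as well, at 10.46 to 10.97 in hypoxia and 9.83 to 10.63 in normoxia (5 of 6 genes higher on average, 1 lower). Erythroid markers, 9 of 10 measured and led by *Alas2*, had sums of 8.73, 8.42, 7.84 and 8.10 in hypoxic mice A to D, against 7.76 to 7.90 in normoxic mice, with 6 of 9 genes higher on average in hypoxia. Among hypoxic mice this order, A, B, D and C, was also that of the mean deviation of the 6 midzone and ring genes. It was not the order of each gene. *Ect2* and *Anln* were highest in mouse D, and *Prc1* was higher in D than in B. The part of these cell types in the levels of the 9 genes was not tested.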

How the data were processed

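RNA of 1 lung lobe per mouse was measured on 8 arrays, 4 of hypoxic and 4 of normoxic mice. The authors deposited log2 intensities. Probes were grouped to 1 value for each Entrez gene through a custom chip definition, version 22, and quantile normalized, as the study's methods state, while RMA is named in the processing notes of the submitters. Which background correction was used, which arrays were normalized as 1 set and on which build the chip definition rests was not given in the sources used here. Array medians ranged between 4.17 and 4.20. There is no read depth on arrays, so precision is limited by their number.

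Gene symbols were assigned to 25237 probe sets by their Entrez ID in RefSeq (GRCm38.p6) and to 32 by the platform annotation only, and 159 had none. Differences are hypoxia minus normoxia, fitted over all 25428 probe sets with limma (version 3.58.1, R 4.3.3), with Benjamini-Hochberg adjustment, a threshold of 0.05 and no filter on dim probe sets. The methods' one-way ANOVA was an alternative, as were median centring, a second quantile normalization, array weights, a variance trend with intensity, a filter on dim probe sets and the omission of each mouse. The fit was tested on simulated data. The members and all lists were chosen with earlier results of these data known. Named are the 9 members, from each list up to 4 genes by smallest p, the probe sets most like each member within groups (the first 3 were looked up), and the 2 brightest members of the marker lists. *Kif23* is named as 1 of the probe sets most like *Iqgap3* and as the partner of *Racgap1*. The midzone partners with overlapping groups, the partners with a promoter match and the neighbours of *Ect2* and *Iqgap3* were named outside this rule, after their values were seen. The lists held 112 partner and proliferation genes (111 measured) and 98 marker genes in 16 lists (97 measured). The results of 1 partner list are not reported here. Promoter windows ran from 250 bases before to 50 after each RefSeq start, for all 9 members. Python 3.11.15, pandas 2.3.3, scipy 1.17.1 and matplotlib 3.10.9 were used.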

Additional observations from a re-analysis of the deposited data

Results flagged for a closer look

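In 2 of 58 groups of 4 mice that were looked at (the 9 members and the 20 partner and proliferation genes with the smallest p, in each group of mice), a single mouse lay far from the others. Both were the hypoxic mouse C, with a log2 level of 5.32 for *Ect2*, where the next hypoxic mouse had 6.53 and the gap took a 0.908 share of the range, and of 4.85 for *Prc1*, where the next had 6.14 and the share was 0.841, both above Dixon's limit for groups of this size. By chance about 1 in 20 groups is marked in this way. Without mouse C the differences, hypoxia minus normoxia, were 2.48 for *Ect2* and 2.50 for *Prc1*.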

How the results depend on the processing

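Over 44 results, 508 of 542 alternative values were rated the same. This meant direction and side of the threshold for tested genes, a similar count, or a shift within the spread between mice. Reversal and weakening were rated only for the 20 partner and proliferation genes taken by smallest p, with 0 of 278 values. Weakening meant the loss of a call at the adjusted threshold. It could not occur, because none of these genes passed in the fit reported. Small differences could turn sign and be rated the same, as *Iqgap1* did (-0.06 without hypoxic mouse D). The number of other proliferation genes with groups apart, 20 to 30 with a mouse left out, was also rated the same. Leaving out a mouse cannot lower a count of this kind. The median difference of all probe sets stayed between -0.012 and 0.009 in all settings. The number of probe sets past the adjusted threshold, 0 in the fit reported, was 53 without dim probe sets (44 higher), 12 with an intensity trend and robust variance and 22 with array weights, and 0 to 33 with a mouse left out (33 without hypoxic mouse C, 23 without normoxic mouse G and 14 without normoxic mouse H). For the midzone partners the number was 4 without dim probe sets and 0 to 4 with a mouse left out (4 without C). For the other proliferation genes it was 7 without dim probe sets, 3 with the intensity trend, 2 with array weights and 0 to 9 with a mouse left out (9 without C, 2 without G and 1 without H). Without dim probe sets fewer were tested, 12714, with 8 of the 9 members. The 4 members that passed the threshold there (*Ect2*, *Prc1*, *Anln* and *Iqgap3*) had normoxic means below the limit of 4.18. They were kept only through their hypoxic levels, as were 14 of the 53 probe sets. The same held for 2 of the 4 midzone partners and 2 of the 7 other proliferation genes called there. Calls of this kind support nothing about these genes. The same 4 passed without mouse C, *Iqgap3* alone with the intensity trend and with array weights, and 3 members (*Ect2*, *Prc1* and *Iqgap3*) without mouse G. Of the 20 partner and proliferation genes taken by smallest p, 7 passed it in an alternative. With a mouse left out, the median difference of the 6 midzone and ring genes was 1.39 to 1.81 and that of *Iqgap3* 1.88 to 2.30. Of the 6 midzone and ring genes, 5 to 6 had groups that did not overlap (6 without C or without G). This count, too, could not fall. Why the counts differ was not tested. No paired analysis was possible because the mice of the groups carry different letters and share no replicate number.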
